A study of Mus musculus with 16 samples.

Results

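Dimethylation of lysine 4 of histone H3 (H3K4me2) was compared between CD8+ T cells treated with GSK2879552 (GSK), an irreversible inhibitor of the demethylase LSD1, and cells given vehicle (Veh). Every peak of both H3K4me2 lists was taken as deposited, with no selection on its values. There were 15219 peaks in the Veh list and 9437 in the GSK list, which together made 24656 of the 214352 peaks in the 12 peak lists of the series. The GSK list was thus shorter by 5782 peaks. LSD1, encoded by Kdm1a, removes methyl groups from H3K4me1 and H3K4me2 but cannot act on H3K4me3, and works within repressor complexes with CoREST and histone deacetylases. H3K4me2 is known to mark active and poised promoters, where it flanks the H3K4me3 over the start site, as well as enhancers. In T cells it is found over lineage genes and over many genes that can be switched on after activation.

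CD8+ T cells came from spleens of OT1 mice, a strain with a transgenic T cell receptor that recognizes a peptide of ovalbumin. Both groups were activated with antibodies to CD3 and CD28 for 48 h in the presence of IL-2 and then expanded with IL-2 for 3 days, with 0.5 μM GSK or vehicle present throughout. Chromatin was sheared mostly to 300 to 800 bp before immunoprecipitation with 1 of 6 antibodies. Each combination of treatment and antibody had 1 library, so the spread between replicates is unknown, no test was made and the values are a description of these libraries.

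Depth was not computed, since peak lists hold no read totals. The study states fewer unique read pairs for the GSK H3K4me2 library than for the Veh one. It also states that reads were picked at random to equal numbers when signals were compared. Whether peaks were called on the picked or on all reads is not clear from it. A list grows with depth, and the part of depth in the shorter GSK list was not tested. Shares of peaks are given with Wilson intervals at the 95% level. They cover counting error only, and neighboring peaks are not independent of each other.

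Peaks found in both lists and peaks found in 1 list differed in the sequence under them, and 2 examples of each class are given here. They are the 300 bp at the center of the 2 strongest peaks of each class by the −log10 p of the peak caller, leaving out peaks with a partner within 1 kb from the classes of 1 list, windows with an exon or with mostly repeated sequence, and shared peaks with −log10 p above 100. Bases were read from the reference genome GRCm38.p6 in mm10 coordinates on the forward strand, and CpG dinucleotides are in capitals. The first pair is of peaks found in both lists, at the start of Arvcf, which encodes a catenin of cell junctions, and upstream of Rnf19b, which encodes a ubiquitin ligase of cytotoxic lymphocytes.
Arvcf chr16:18392784-18393083: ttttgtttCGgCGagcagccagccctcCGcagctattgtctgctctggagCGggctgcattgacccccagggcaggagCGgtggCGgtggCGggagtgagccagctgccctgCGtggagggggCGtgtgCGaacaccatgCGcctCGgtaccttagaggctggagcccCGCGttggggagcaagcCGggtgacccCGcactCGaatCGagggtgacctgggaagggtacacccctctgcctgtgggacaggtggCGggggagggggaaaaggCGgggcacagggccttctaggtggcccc
Rnf19b chr4:129048922-129049221: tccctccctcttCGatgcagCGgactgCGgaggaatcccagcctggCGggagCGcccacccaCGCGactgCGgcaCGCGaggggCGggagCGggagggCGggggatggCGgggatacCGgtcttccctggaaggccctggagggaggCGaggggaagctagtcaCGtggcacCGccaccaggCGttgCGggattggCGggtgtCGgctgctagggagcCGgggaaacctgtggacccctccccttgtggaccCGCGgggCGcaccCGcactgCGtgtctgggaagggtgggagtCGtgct
The second pair is of peaks found only in Veh. The first lies in an intron of Pik3r1, which encodes the regulatory subunit of phosphoinositide 3-kinase, and the second in an intron of the zinc finger gene Rreb1.
Pik3r1 chr13:101719020-101719319: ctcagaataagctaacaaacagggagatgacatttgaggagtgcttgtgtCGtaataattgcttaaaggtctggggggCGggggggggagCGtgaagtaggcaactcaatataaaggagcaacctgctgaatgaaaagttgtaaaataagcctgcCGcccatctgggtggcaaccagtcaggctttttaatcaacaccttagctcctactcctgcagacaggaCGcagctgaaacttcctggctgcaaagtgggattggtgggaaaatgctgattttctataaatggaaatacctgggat
Rreb1 chr13:37854022-37854321: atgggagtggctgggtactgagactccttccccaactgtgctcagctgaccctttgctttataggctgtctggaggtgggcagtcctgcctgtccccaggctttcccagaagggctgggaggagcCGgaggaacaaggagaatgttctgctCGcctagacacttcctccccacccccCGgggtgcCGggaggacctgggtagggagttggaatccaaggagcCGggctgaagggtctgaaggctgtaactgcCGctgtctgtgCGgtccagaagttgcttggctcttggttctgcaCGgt
The third pair is of peaks found only in GSK. The first lies within 1 kb of the start of Rab19, which encodes a small GTPase, and the second upstream of Aldh1a3, which encodes an enzyme of retinoic acid synthesis.
Rab19 chr6:39382094-39382393: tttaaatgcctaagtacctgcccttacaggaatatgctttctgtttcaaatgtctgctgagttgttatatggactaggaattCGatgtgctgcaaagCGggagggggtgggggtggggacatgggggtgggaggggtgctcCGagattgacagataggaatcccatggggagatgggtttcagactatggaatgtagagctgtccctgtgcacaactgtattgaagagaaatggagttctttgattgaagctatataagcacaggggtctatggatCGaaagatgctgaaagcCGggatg
Aldh1a3 chr7:66450137-66450436: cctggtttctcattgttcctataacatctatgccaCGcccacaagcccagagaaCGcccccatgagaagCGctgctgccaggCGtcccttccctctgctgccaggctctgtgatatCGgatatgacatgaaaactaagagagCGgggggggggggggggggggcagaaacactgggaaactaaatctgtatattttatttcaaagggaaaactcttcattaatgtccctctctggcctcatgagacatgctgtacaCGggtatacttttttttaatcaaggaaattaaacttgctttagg
The shared windows held 20 CpGs at Arvcf, which is 0.590 of the number its base composition predicts, and 29 at Rnf19b, which is 0.776 of it. The Veh-only windows held 5 at Pik3r1 and 8 at Rreb1, and the GSK-only windows held 5 at Rab19 and 7 at Aldh1a3. At Arvcf the Veh peak was 669 bp wide with a fold enrichment of 9.29 and the GSK peak was 603 bp wide with a fold of 8.15. Fold enrichment is the ratio of the ChIP signal to the background in the peak, as the caller gave it.

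A like contrast was seen over the whole lists. The median GC content of the central 300 bp was 63.0% in Veh peaks overlapped by a GSK peak, 52.0% in Veh-only peaks and 53.0% in GSK-only peaks. A window was called CpG-rich when its GC content was above 50% and its CpGs were above 0.6 of the number its base composition predicts, a limit that the Arvcf window just missed. By this rule 57.0% of shared Veh peaks (56.0 to 58.1), 20.9% of Veh-only peaks (20.0 to 21.9) and 31.5% of GSK-only peaks (28.8 to 34.5) were CpG-rich. Peaks found in a single list, whichever the treatment, were thus poorer in CpG than shared peaks. The GC box GGGCGG, searched on both strands, was in 51.3% of shared Veh windows, 23.9% of Veh-only windows and 31.5% of GSK-only windows. It was in 35.7% of all 32851 RefSeq promoter windows of the same length. A further 5 short motifs were searched on both strands. Their shares in all RefSeq promoters are given for scale only, since no background of windows outside promoters was computed. Outside promoters, the RUNX word TGTGGTT was in 7.29% of shared, 10.1% of Veh-only and 8.68% of GSK-only windows, against 5.27% of all RefSeq promoters. The AP-1 word TGANTCA was in 7.97%, 9.80% and 10.2% of the same classes, against 7.81% of all promoters, and the TCF/LEF word CTTTGAA was in 4.46%, 6.33% and 8.11%, against 5.14%. These 3 words had higher shares outside promoters in both classes of single-list peaks than in shared peaks, but not all intervals lay apart. The RUNX interval of GSK-only peaks (6.57 to 11.4) overlapped that of shared peaks (6.30 to 8.41). The AP-1 intervals of Veh-only (8.89 to 10.8) and GSK-only peaks (7.89 to 13.1) both overlapped that of shared peaks (6.94 to 9.14). The ETS and E-box words had lower shares there in single-list peaks, but only the ETS interval of Veh-only peaks lay apart from that of shared peaks. Outside promoters the ETS word CCGGAAG was in 4.97% of shared, 3.45% of Veh-only and 3.77% of GSK-only windows, against 8.86% of all promoters. The E-box CACGTG was in 6.56%, 5.54% and 3.96%, against 7.15%. The E-box intervals were 5.62 to 7.64 for shared, 4.85 to 6.33 for Veh-only and 2.61 to 5.98 for GSK-only windows. Both of these words hold a CG, and the RUNX, AP-1 and TCF/LEF words do not. The median GC content outside promoters was 55.3% in shared windows and 50.3% in either class of single-list windows. The part of base composition was not tested.

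Of the Veh peaks, 8419 overlapped a GSK peak by at least 1 bp and 6800 did not, and 1018 GSK peaks overlapped no Veh peak. Nearly all overlaps were simple. There were 8392 pairs in which a single Veh peak met a single GSK peak, 9 Veh peaks that were split over 2 GSK peaks, and 9 GSK peaks that joined 2 Veh peaks. Few of the remaining peaks were near misses. Only 106 Veh-only peaks (1.56%) and 96 GSK-only peaks (9.43%) had a peak of the other list within 1 kb. The peaks found in 1 list were narrow and weak. Veh-only peaks had a median width of 511 bp and a median −log10 p of 7.34, against 804 bp and 9.61 for Veh peaks with a GSK partner. GSK-only peaks had a median width of 378 bp and a median −log10 p of 7.08, against 611 bp and 8.55 for the other GSK peaks. With the Veh list cut to the 9437 peaks of highest −log10 p, so that both lists were equally long, 2757 Veh peaks had no GSK partner and 2753 GSK peaks had none. These counts are nearly equal by construction, since lists of equal length with simple overlaps leave as many peaks unmatched on each side. Of these 2753 GSK peaks, 1018 overlapped no peak of the whole Veh list and the others met Veh peaks below the cut. Across the autosomes the ratio of GSK to Veh peaks lay between 0.569 on chromosome 3 and 0.660 on chromosome 18. It was lower on chromosome X, at 0.500, where 75 of 206 Veh peaks had a GSK partner (36.4%, 30.1 to 43.2).

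Peaks found in 1 list lay more often away from the starts of genes. A peak was placed at a promoter when it overlapped the 1 kb on either side of a transcription start site (TSS) of a curated RefSeq transcript, and otherwise by its center in an exon, an intron or between genes. Promoters held 72.3% of the Veh peaks with a GSK partner (71.3 to 73.2), 45.9% of the Veh-only peaks (44.7 to 47.0) and 47.9% of the GSK-only peaks (44.9 to 51.0). Introns held 10.7%, 26.6% and 22.2% of these classes. Regions between genes held 13.8%, 24.0% and 25.9%. Seen from the Veh list, 66.1% of its 9204 promoter peaks (65.1 to 67.1) and 33.2% of its 2707 intron peaks (31.5 to 35.0) were overlapped in GSK. Peaks between genes stood in the middle, with 41.6% of 2798 overlapped. The center of a Veh-only peak lay a median 1834 bp from the nearest TSS and that of a GSK-only peak 1439 bp, against 435 bp for a shared Veh peak. More than 10 kb from any TSS lay 35.0% of the Veh-only and 34.3% of the GSK-only peaks, against 18.1% of the shared ones.

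**Figure D1:**
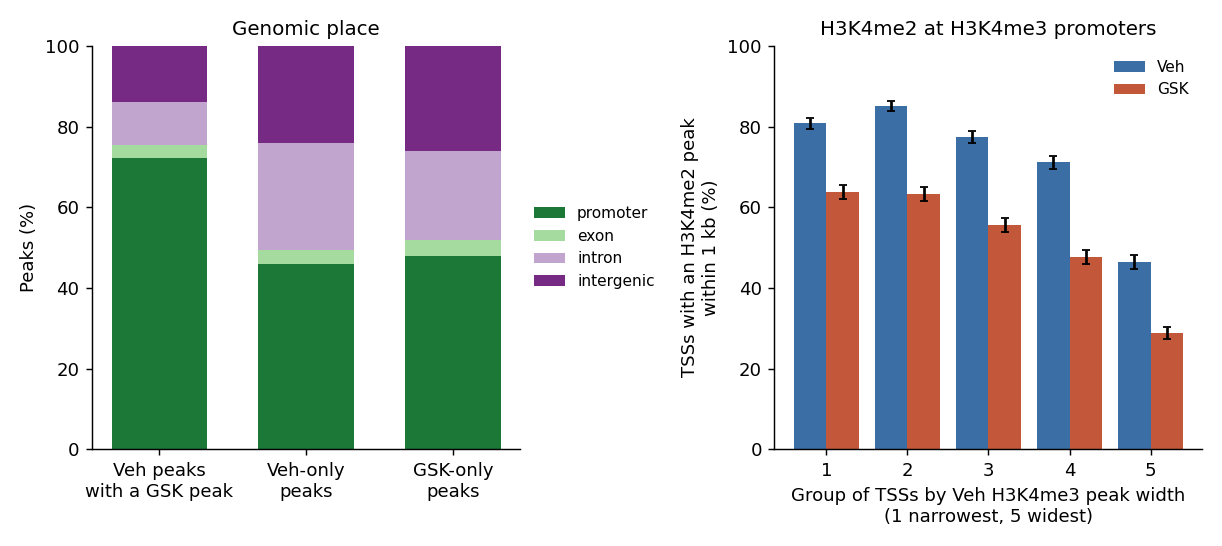
Left, the share of peaks (%) at promoters, exons, introns and between genes for Veh peaks with a GSK partner, Veh-only peaks and GSK-only peaks. Right, the share of TSSs (%) with an H3K4me2 peak within 1 kb in Veh and GSK, for TSSs with a Veh H3K4me3 peak in 5 equal groups by the width of that peak, with 95% Wilson intervals. Both classes of peaks found in 1 list have promoter shares under 50%, and the H3K4me2 share is lowest in the group of widest H3K4me3 peaks, at 46.4% in Veh and 28.8% in GSK.

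Whether a Veh peak was found again rose steeply with its strength. The Veh peaks were put in 10 equal groups by −log10 p. Of the weakest group 19.6% were overlapped in GSK (17.7 to 21.6), and of the strongest 92.5% (91.1 to 93.7). Place and sequence moved with the overlap beside strength. In 10 of the 10 groups, the share was higher at promoters than elsewhere, from 29.4% against 11.9% in the weakest to 95.9% against 83.3% in the strongest. It was also higher for CpG-rich windows in 10 of the 10 groups, both at promoters and elsewhere. Over all groups, CpG-rich Veh peaks outside promoters were overlapped more often (71.4%, 68.4 to 74.2) than Veh peaks at promoters that were not CpG-rich (49.8%, 48.3 to 51.4). The least often found were peaks outside promoters that were not CpG-rich, at 32.8% of 5086.

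**Figure D2:**
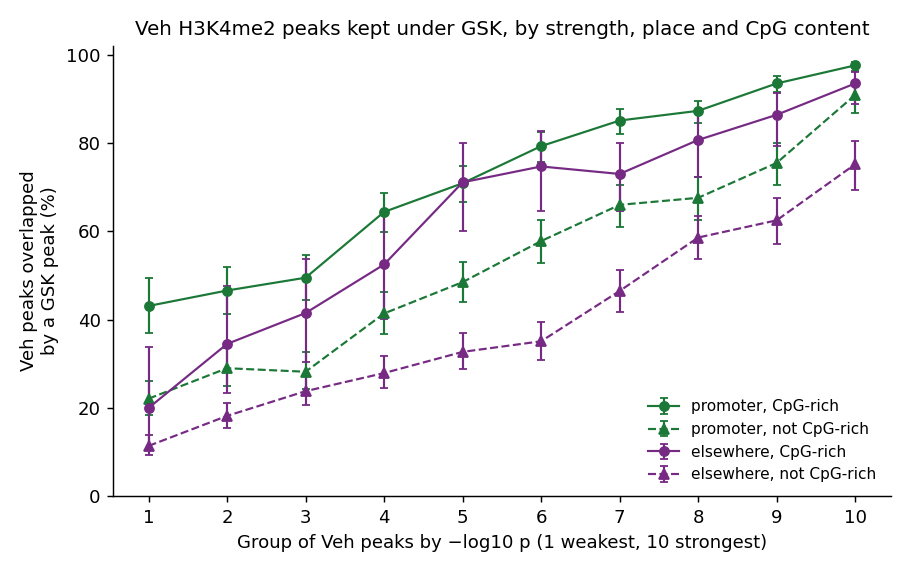
How many Veh peaks (%) met a GSK peak, in 10 equal groups of rising −log10 p, with 95% Wilson intervals. Green lines are promoters, purple lines other places, solid lines CpG-rich windows and dashed lines other windows. All 4 lines are far higher in the strongest group than in the weakest, and CpG-rich windows lie above the others of the same place in every group.

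Shared peaks were mostly narrower in GSK. In the 8392 simple pairs the Veh peak had a median width of 804 bp and the GSK peak 612 bp. The median log2 ratio of GSK to Veh width was −0.25 (−0.26 to −0.24, from the ranks of a binomial interval), and its quartiles were −0.70 and 0.03. The GSK peak was narrower in 6055 pairs, wider in 2315 and equal in 22. The fold enrichment of the same pairs hardly moved, with a median log2 ratio of 0.04. The narrowing was seen in each place, with medians of −0.25 at promoters, −0.16 in exons, −0.29 in introns and −0.24 between genes. It was larger in weaker pairs, at −0.35 in the lowest of 5 groups by mean −log10 p and −0.17 in the highest. Grouped by the mean width of the pair, the medians ran between −0.21 and −0.29 with no steady trend. Narrower peaks often sat within their partner. The GSK peak lay wholly inside its Veh peak in 3420 pairs (40.8%) and the reverse held in 760 (9.06%).

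The other histone marks differed in how the width of shared peaks moved. In pairs made the same way, the median log2 width ratio was 0.11 for H3K4me1, the mark with a single methyl group, −0.01 for H3K4me3 and −0.61 for H3K27ac, an acetylation mark of active promoters and enhancers. The width of pairs moved with the length of the lists. The ratio of GSK to Veh peak numbers was 0.620 for H3K4me2, 1.17 for H3K4me1, 1.07 for H3K4me3 and 0.371 for H3K27ac. H3K27ac thus had the shorter list and the narrower shared peaks in GSK too, and more so than H3K4me2. The study states fewer unique read pairs in GSK than in Veh for H3K27ac and H3K4me2, with the wider gap for H3K27ac, and more in GSK for H3K4me1 and H3K4me3. The order of these read totals thus moved with both ratios. Whether peaks were called on all reads or on equal numbers picked at random is not clear from the study. The part of depth in the ratios was not tested.

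**Figure D3:**
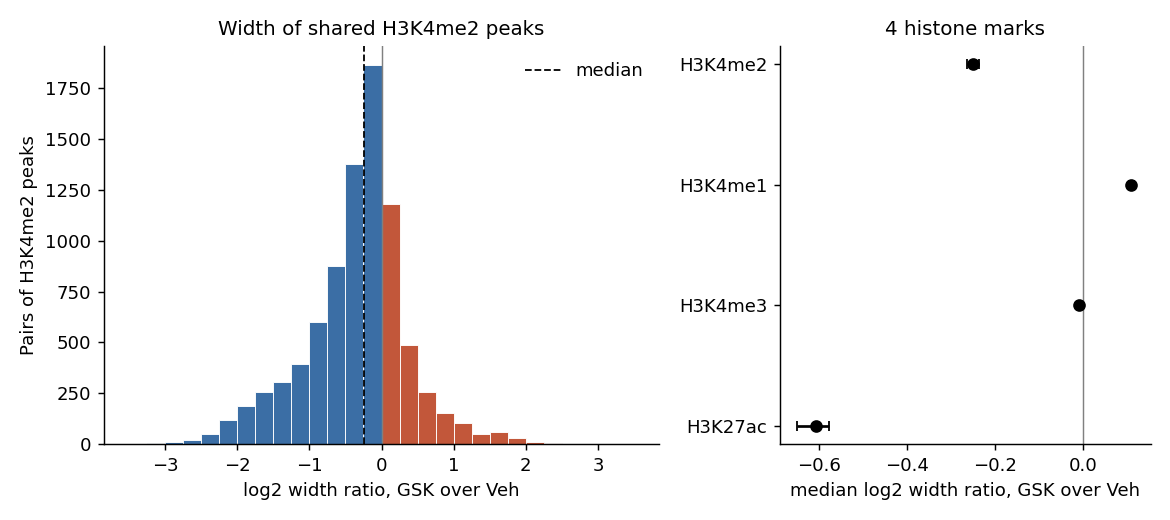
Left, the number of simple H3K4me2 pairs by log2 ratio of GSK to Veh width, with narrower GSK peaks in blue, wider ones in red and the median as a dashed line. Right, the median log2 width ratio of the simple pairs of 4 histone marks with its 95% interval. H3K4me2 stands at −0.25, between H3K4me3 at −0.01 and H3K27ac at −0.61, and H3K4me1 is above 0 at 0.11.

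The largest changes in width were at genes of several kinds. The 5 largest decreases included the promoters of Tfap4, a repressor and activator downstream of Myc (2708 bp in Veh and 323 bp in GSK), Elk3, an ETS factor (2576 and 314 bp), and Rela, the p65 subunit of NF-κB (2232 and 286 bp). The other two lay in introns, with the nearest starts at Mir7087 (2505 and 277 bp) and Hvcn1, a proton channel gene (2587 and 299 bp). The 5 largest increases included the promoters of Sac3d1 (313 bp in Veh and 1811 bp in GSK), Med26, a subunit of Mediator (404 and 2047 bp), and Cyrib, a regulator of the actin cytoskeleton (354 and 1778 bp). An increase in an exon of Tsc22d2 (342 and 1793 bp) and one nearest to Zfp395 (377 and 2097 bp) completed them. In the Tfap4 pair of the decreases the peaks barely met. The Veh peak ended at 4560583 on chromosome 16 and the GSK peak began at 4560566. The wide GSK peaks of the increases had a −log10 p between 6.31 and 7.03, and the wide Veh peaks of the decreases one between 6.92 at Tfap4 and 12.8 at Hvcn1. The widest peak of the Veh list, 4325 bp with a fold of 2.89, covered part of Zc3h12a, which encodes the RNase Regnase-1 that restrains T cell activation. The other wide Veh peaks lay at the promoters of Nabp2 with Rnf41, of Trabd and of Dbp, and in repeated sequence on chromosome 9. The widest GSK peaks, from 2558 to 3069 bp, lay at the promoters of Lzts2, Foxp4, Camk2g with Gm30108, Phf21b and Prob1.

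Around the TSS, H3K4me2 was highest just inside the gene. A base 300 bp downstream lay in a Veh peak at 7560 of 31603 TSSs (23.9%) and in a GSK peak at 5251 (16.6%), which was the maximum of both lists. At the TSS itself the shares were 19.7% and 13.0%. They were 4.24% and 2.17% at 1 kb upstream and higher, at 9.09% and 4.25%, at 1 kb downstream. The ratio of GSK to Veh cover was 0.695 at the maximum, 0.513 at 1 kb upstream and 0.468 at 1 kb downstream. The difference was thus larger on the flanks than at the center. Of TSSs covered at 300 bp, 19.2% in Veh (18.3 to 20.1) and 11.3% in GSK (10.5 to 12.2) were also covered at 1 kb downstream. With the Veh list cut to the GSK length by −log10 p the Veh value was 17.6%, but cut by fold it was 12.1% (11.3 to 13.0), so how far this difference holds at equal length depended on how the list was cut.

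**Figure D4:**
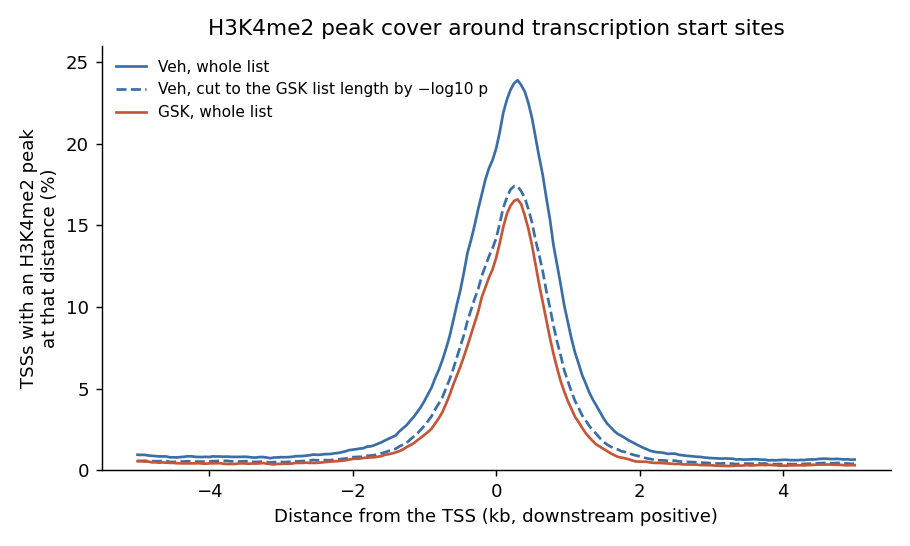
The share of 31603 TSSs (%) with an H3K4me2 peak at each distance from the TSS (kb, downstream positive) for the whole Veh list, the Veh list cut to the GSK length by −log10 p and the whole GSK list. All 3 curves have their maximum at 300 bp downstream, and the cut Veh curve lies between the other two there, at 17.4%.

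In 4526 simple pairs the Veh peak was within 1 kb of exactly 1 TSS, which allowed the edges to be placed. The median upstream edge stood 200 bp upstream of the TSS in Veh and 91.0 bp upstream in GSK. The median downstream edge stood 716 bp downstream in Veh and 620 bp in GSK. By these medians both edges lay nearer to the center of the peak in GSK. Within pairs the differences were smaller. The upstream edge in GSK stood a median 38.0 bp inward of that in Veh (quartiles −43.0 and 157). The downstream edge differed by a median of −60.0 bp (quartiles −186 and 23.0), where a negative value is inward. The upstream edge was further downstream in GSK in 62.5% of pairs and the downstream edge further upstream in 68.7%. The peak covered the TSS itself in 2689 of these pairs in Veh and in 2265 in GSK. In 765 pairs the Veh peak covered it and the GSK peak did not, and in 341 pairs the reverse was true.

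Most H3K4me2 peaks overlapped an H3K4me3 peak, and most of those that did lay across its edge. In Veh, 74.0% of H3K4me2 peaks overlapped an H3K4me3 peak of the same treatment, and 59.4% of those crossed its edge while 22.2% lay wholly inside it. In GSK, 86.2% overlapped one, 51.9% of those crossed its edge and 39.2% lay wholly inside. Promoters with the widest H3K4me3 peaks carried H3K4me2 least often. Among TSSs with a Veh H3K4me3 peak, in 5 equal groups by the width of that peak, an H3K4me2 peak within 1 kb was found at 80.8% in Veh and 63.8% in GSK for the narrowest group. For the widest group the shares were 46.4% in Veh (44.7 to 48.2) and 28.8% in GSK (27.2 to 30.4). H3K4me2 peaks that lay from 1 to 5 kb away with none nearer were found at 19.9% of TSSs of the widest group in Veh and 9.03% in GSK, against 3.59% and 3.20% for the narrowest. Of the TSSs with a Veh H3K4me2 peak, 75.8% in the narrowest group and 53.7% in the widest also had a GSK peak. By the fold of the H3K4me3 peak in place of its width, the Veh share ran the other way, from 48.8% in the weakest group to 84.3% in the strongest.

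The peaks found again in GSK also differed in LSD1 and in other marks. Promoter Veh peaks with an LSD1 peak in both treatments were overlapped by a GSK H3K4me2 peak at 77.9% of 4513 sites, and those with LSD1 in neither at 44.2% of 2480. Elsewhere the values were 59.5% of 1458 and 27.2% of 3006. With LSD1 only in Veh, the shares were 59.0% at promoters and 33.8% elsewhere. With LSD1 only in GSK they were 69.9% and 51.6%. Sites with LSD1 were also stronger, with a median −log10 p of 9.26 at promoters with LSD1 in both against 7.99 with none. They were wider too, with medians of 994 bp against 498 bp at promoters and 748 bp against 461 bp elsewhere. Within each of the 10 strength groups, the share overlapped was still higher with a Veh LSD1 peak than without, at promoters and elsewhere. These groups did not hold width equal, and the part of width was not tested. GSK-only peaks made up 14.7% of GSK promoter peaks without LSD1 (12.9 to 16.7) and 4.65% of those with LSD1 in both treatments (4.01 to 5.40). Both Veh-only and GSK-only H3K4me2 peaks were thus more frequent where no LSD1 peak was called. In 10 groups of GSK peaks by −log10 p, 72.1% of the weakest and 98.5% of the strongest were overlapped by a Veh peak. The GSK-only shares by LSD1 were not split by strength or width, and the part of these was not tested. Of Veh-only peaks 35.6% overlapped a Veh LSD1 peak, of GSK-only peaks 37.1% and of shared Veh peaks 60.0%.

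H3K4me3 peaks of the Veh library overlapped 86.0% of shared Veh peaks, 59.0% of Veh-only and 49.9% of GSK-only peaks. Those of the GSK library overlapped 90.5%, 62.2% and 58.4% (55.4 to 61.4) of the same classes. With the H3K4me3 peaks of their own treatment, Veh-only (59.0%) and GSK-only peaks (58.4%) thus had like shares. Veh H3K27ac peaks overlapped 16.5% of shared Veh peaks, 20.3% of Veh-only and 16.3% of GSK-only peaks. The difference between the Veh classes was at promoters, with 14.8% of shared and 20.9% of Veh-only peaks, while elsewhere the shares were 21.0% and 19.8%. At promoters, Veh H3K4me2 peaks with H3K27ac were overlapped in GSK less often (58.0%, 55.5 to 60.4) than those without it (67.8%, 66.7 to 68.8), and elsewhere the shares were 40.2% and 38.4%. The median −log10 p of promoter peaks with H3K27ac was 7.91 and of those without it 9.01, so strength moved with this difference, and its part was not tested.

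By gene, 6867 of 26180 genes (26.2%) had a promoter H3K4me2 peak in both treatments. A further 3351 genes (12.8%) had one only in Veh and 506 genes (1.93%) only in GSK. With the Veh list cut to the GSK length, the counts were 1461 Veh-only and 1809 GSK-only genes by −log10 p and 1523 and 2371 by fold. The cut took peaks from the Veh list only, so a gene with a Veh peak below it could turn GSK-only. These counts therefore do not show which treatment had more genes of its own. The counts of Veh-only and GSK-only genes in the lists below are those of the whole lists, which were of unequal length. Among the 13084 genes with a Veh H3K4me3 promoter peak these shares were 49.9%, 23.4% and 3.11%, and 23.6% had no H3K4me2 promoter peak. The gene lists below are read against these shares. A gene counted as Veh-only or GSK-only could still have a peak of the other list just outside the 1 kb window.

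**Figure D5:**
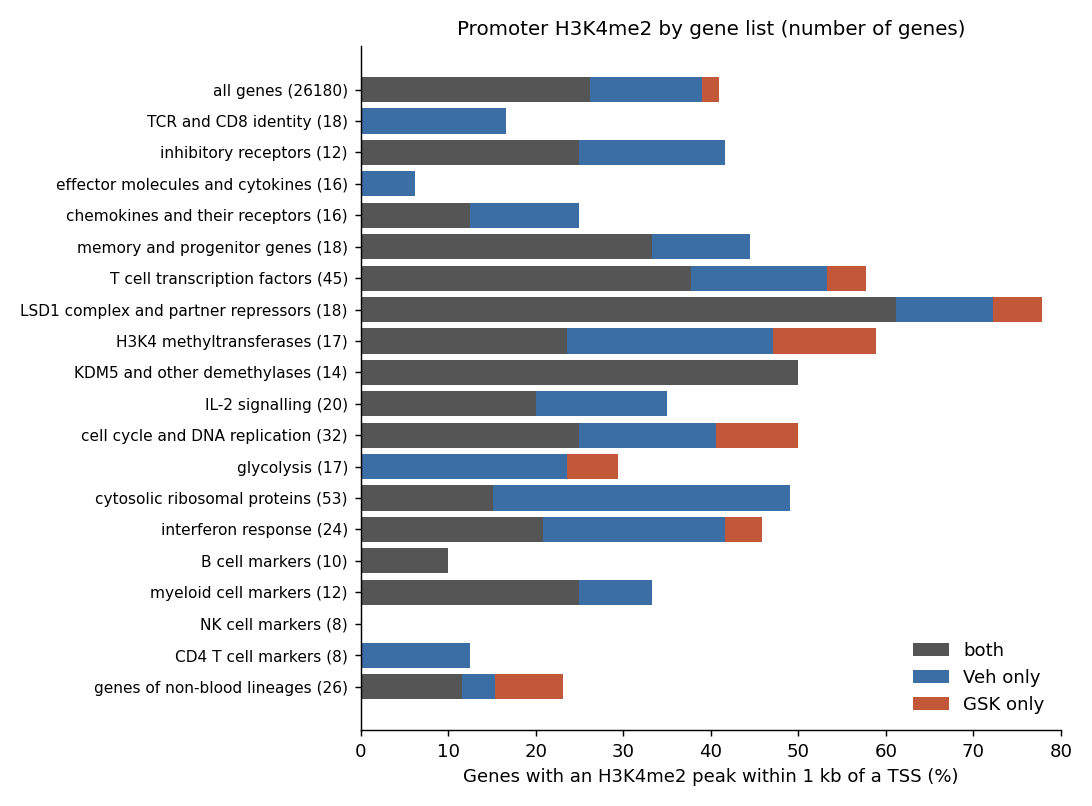
The share of genes (%) with an H3K4me2 peak within 1 kb of a TSS in both treatments, only in Veh or only in GSK, for all 26180 genes and for 19 gene lists, whose sizes are in parentheses. The LSD1 complex list reaches furthest, with 14 of 18 genes marked, and the T cell receptor and CD8 identity list has no gene marked in both.

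The genes that define these cells were almost free of promoter H3K4me2 peaks. Of 8 CD8 T cell markers, which were Cd3d, Cd3e, Cd3g, Cd8a, Cd8b1, Cd2, Lck and Thy1, only Lck had a promoter H3K4me2 peak in Veh and none had one in GSK. H3K4me3 was there at each of them, with a promoter peak at 8 of the 8 in both treatments. Of 18 genes of T cell receptor signaling and CD8 identity, 15 had no H3K4me2 promoter peak and 18 had H3K4me3. The median width of their Veh H3K4me3 peaks was 2209 bp, against 1261 bp over all genes with one. At Cd8a, the CD8 α chain, the nearest H3K4me2 peak began 2617 bp downstream of the TSS in Veh and 1210 bp downstream in GSK. At Thy1 the nearest lay 2146 bp downstream in Veh and 23667 bp away in GSK, and at Lat, an adaptor of the receptor, 1272 bp downstream in Veh and 7158 bp away in GSK. In this list, 3 genes had a promoter peak only in Veh. They were Cd6, a co-receptor (2017 bp, fold 3.34), the kinase Lck (293 bp, fold 2.80) and the kinase Zap70 (1073 bp, fold 2.51). Of the genes of other cells, 1 of 10 of B cells was marked, which was Ebf1, in both treatments (fold 5.24 in Veh and 5.61 in GSK). Of 12 myeloid genes, Cd14, Cebpa and Cebpb were marked in both and Spi1 only in Veh. Of 8 CD4 T cell genes only Zbtb7b was marked, in Veh, and of 8 NK cell genes none was.

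Among effector molecules, chemokines and inhibitory receptors, the effector list was the least often marked. Over all genes, 26.2% were marked in both treatments, 12.8% only in Veh and 1.93% only in GSK. A Veh H3K4me3 promoter peak was found at 9 of 16 effector genes, 8 of 16 chemokines and receptors and 10 of 12 inhibitory receptors. Of 16 effector molecules and cytokines, only Prf1, which encodes perforin, had a peak, and only in Veh (563 bp, fold 3.65). Of 16 chemokines and receptors, Cxcr4 and S1pr1 were marked in both, and Ccl3 and Ccl4, which encode chemokines secreted by activated CD8+ T cells, only in Veh. Of 12 inhibitory receptors, Tigit, Entpd1 and Cd160 were marked in both, and Lag3 (1251 bp, fold 3.74) and Cd200r1 only in Veh. At Tigit the peak was wider in GSK, with 566 bp in Veh and 1557 bp in GSK.

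Of 18 memory and progenitor genes, 6 were marked in both treatments, 2 only in Veh and none only in GSK. Tcf7, which encodes the stem-like factor TCF1, had a peak of fold 3.65 and −log10 p 9.05 in Veh and of fold 5.57 and −log10 p 14.8 in GSK. Id3 had folds of 3.61 and 4.74, and Il6ra, the IL-6 receptor chain, 6.59 and 4.36. The 2 genes marked only in Veh were Lef1, a partner of TCF1 (fold 2.46), and Eomes, a T-box factor (fold 3.06). The values at these shared genes thus moved in both directions.

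Of 45 T cell transcription factors, 17 were marked in both, 7 only in Veh and 2 only in GSK. Those only in Veh were Runx2, Ets1, Elf1, Nfkb1, Rel, Stat5b and Egr3, among which Nfkb1 was the strongest (468 bp, fold 4.97, −log10 p 12.9). At Runx2 a GSK peak lay within the Veh peak but 1270 bp from the TSS, so it fell outside the window and the peak itself was shared. The GSK-only genes were Runx3, a factor of CD8 lineage fate, with a peak of 1082 bp over a TSS (fold 3.67), and Tox2 (432 bp, fold 6.42, −log10 p 12.3). Tox2 belongs to the TOX family linked to exhaustion, and its promoter had no H3K4me3 peak in either treatment. Tox itself was marked in both, with 1363 bp and a fold of 3.83 in Veh and 679 bp and a fold of 4.71 in GSK. At Tbx21, which encodes T-bet, the peak was 390 bp with a fold of 5.32 in Veh and 1028 bp with a fold of 4.09 in GSK.

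Genes of the machinery of H3K4 methylation were marked about as often as genes with H3K4me3 in general or less often, by their counts. Of 18 genes of the LSD1 complexes and partner repressors, 11 were marked in both, among them Kdm1a (905 bp in Veh and 556 bp in GSK), Rcor1, Rcor2 and Rcor3 of the CoREST family, and Hdac2. Zmym3 and the zinc finger repressor Gfi1 were marked only in Veh and the deacetylase Hdac1 only in GSK (1651 bp, fold 4.72). Of 17 genes of H3K4 methyltransferases and their subunits, 4 were marked in both. Kmt2d, Setd1a, Ash2l and Men1 were marked only in Veh, and Setd1b and Kdm6a only in GSK. At Setd1b a Veh peak lay 1049 bp from the TSS, just outside the window. Of 14 demethylase genes, 7 were marked in both and none in 1 treatment only.

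Ribosomal protein and glycolysis genes were mostly marked only in Veh where they were marked, with the Veh list the longer one. For comparison, of all genes with a Veh H3K4me3 promoter peak 49.9% were marked in both, 23.4% only in Veh and 3.11% only in GSK. Of 53 ribosomal protein genes, 8 were marked in both, 18 only in Veh and none only in GSK, and 53 had a Veh H3K4me3 peak. Among the 18 genes were Rplp1, Rpl7, Rpl11, Rpl18, Rps9, Rps10 and Rps28. The −log10 p of their peaks ran from 5.90 at Rps9 to 13.6 at Rpl18, and at Rpl7 and Rps10 a GSK peak lay just outside the window at 1026 and 1096 bp. The Veh peaks of Rps9 and Rps10 were themselves near the edge of the window, at 992 and 999 bp. Of 17 glycolysis genes, none was marked in both. Hk1, Gapdh, Ldha and the lactate carrier gene Slc16a1 were marked only in Veh and Pfkp, which encodes phosphofructokinase, only in GSK (294 bp, fold 5.61, −log10 p 12.7). Of 20 genes of IL-2 signaling, 4 were marked in both, including Stat5a and Socs2, and Stat5b, Akt1 and Mtor only in Veh.

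Cell cycle and interferon genes held members of every class. A Veh H3K4me3 promoter peak was found at 31 of 32 cell cycle genes and 23 of 24 interferon genes. Over all genes with such a peak, 49.9% were marked in both, 23.4% only in Veh and 3.11% only in GSK. Of 32 cell cycle genes, 8 were marked in both, Ccna2, Ccnb2, Rb1, Mcm7 and Tyms only in Veh, and Ccnb1, Cdkn1b and Rrm1 only in GSK. At Cdkn1b, which encodes the cell cycle inhibitor p27, the GSK peak was 323 bp wide (fold 4.67, −log10 p 12.7), centered 551 bp upstream of the TSS, and the nearest Veh peak was 3390 bp away. Of 24 interferon response genes, 5 were marked in both, Irf7, Irf9, Mx1, Gbp2 and Psmb8 only in Veh and Ifit2 only in GSK. Of 26 genes of non-blood lineages, Neurog2, Pou5f1 and Hoxb4 were marked in both, Pax6 only in Veh and Col1a1 and Hoxd13 only in GSK, so H3K4me2 peaks also lay over developmental regulators outside the T cell program.

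The strongest peaks of a single list were mostly not at promoters. Leaving out peaks with a partner within 1 kb, the 10 Veh-only peaks of highest −log10 p held 2 at promoters, of Itga8 (373 bp, fold 10.5, −log10 p 20.2), which encodes an integrin chain, and of Gm11520 with Kat7, an acetyltransferase gene. The others lay in introns of Mdga2, Pik3r1, Gphn, Rreb1 and Rlf and between genes nearest to Akap7, Dhrs7 and Fbxo27. The 10 GSK-only peaks held 1 at a promoter, of Rab19. The others lay in introns of Ppp3cc, a calcineurin subunit gene, and Lhx5, and between genes nearest to Rny3, Aldh1a3, Ss18, Tex50, Tmem125, Azin1 and Psd2. The GSK-only peak near Rny3 had the highest −log10 p, at 20.6.

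Some of the strongest peaks lay in sequence with copies elsewhere in the genome. In 2 of the 10 strongest Veh-only peaks, in Mdga2 and Gphn, and 2 of the 10 strongest GSK-only peaks, near Rny3 and Tmem125, at least 50% of the 32-base words of the central window occurred at more than 1 place of the genome. The same was true of 6 of the 10 strongest Veh peaks with a GSK partner. Over whole classes it was rare, at 1.77% of shared Veh peaks, 2.62% of Veh-only peaks and 3.34% of GSK-only peaks. The strongest peak of both lists was unique by this measure. It lay in an exon of Mavs, at chromosome 2 from 131240142 to 131240754, with the same edges in both lists and −log10 p values of 519 in Veh and 416 in GSK.

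Several genes held more than 1 peak found in a single list. Peaks were counted from 10 kb upstream of the first TSS to the end of the gene. Of 26180 genes, 6100 held at least 1 Veh-only peak and 952 held at least 2. For GSK-only peaks these counts were 1076 and 22. They come from 6800 Veh-only and 1018 GSK-only peaks, and the part of list length was not tested. Maml3, a coactivator of Notch, held the most, with 8 Veh-only and 3 shared peaks over 417 kb. Akap13, which encodes an anchoring protein of protein kinase A, held 6 Veh-only peaks and no shared one, and Foxp1, a factor of T cell quiescence, 6 Veh-only and 2 shared ones. Clec16a had 5 Veh-only and 3 shared peaks and Nck2, an adaptor of tyrosine kinase receptors, 5 Veh-only and none shared. Nfatc1, Pde4d and Ppp1r16b also had 5 Veh-only peaks each. No gene held more than 2 GSK-only peaks. Ankrd11, Ap1g1, C1ql1, Dnm2 and Etv6 were the first 5 of the 22 in the order of the alphabet. Etv6, an ETS repressor gene, held 2 GSK-only peaks and no Veh peak. The genes named for Veh-only peaks were from 99.6 kb long at Ppp1r16b to 1302 kb at Pde4d. Those named for GSK-only peaks were from 7.45 kb long at C1ql1 to 234 kb at Etv6. The part of gene length was not tested.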

How the data were processed

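ChIP-seq was carried out on chromatin of mouse CD8+ T cells, and the series held 16 samples, of which 12 had a peak list and 4 inputs were not used here. Per the methods of the study, the authors used Bowtie2 to map reads to unique positions of mm10, Samtools to drop PCR duplicates and MACS2 to call peaks at a p-value cutoff of 0.001, which peak names also carry. To compare signals, the authors also picked equal numbers of reads at random from the libraries. Whether peaks were called on those reads is not clear from the methods. The input used as control for each call and any removal of artifact regions are not given in the sources used here. The deposited fold enrichment of a peak is a ratio of ChIP signal to background. The deposited −log10 p and −log10 q come from the peak caller, and the deposited score, a whole number made from −log10 q, was not used. Every H3K4me2 peak had a −log10 q of at least 3.01, which is stricter than the p-value cutoff alone.

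Peaks were intersected in Python with numpy and pandas, at an overlap of 1 bp. TSSs were those of curated RefSeq transcripts of GRCm38.p6, the reference for mm10, which gave 31603 distinct TSSs of 26180 genes. Coordinates are counted from 1. CpG content, repeats and motifs were computed in the central 300 bp of each peak, and windows on chromosome 18 were not shown. Peaks named in the text were the 10 strongest peaks of 1 list with no partner within 1 kb, the 5 largest changes in width each way, the 5 widest of each list, the 5 genes with most unmatched peaks each way, and members of the gene lists marked in 1 treatment, with examples. Some members are not reported here. The members and the lists were chosen with earlier results of these data known. The functions were tested on simulated intervals with known overlaps. With 1 library per group there was no test, and the label of each library gave its group. Depth was not computed. Alternatives covered the threshold, length and overlap of lists, the promoter window and the transcripts used.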

Additional observations from a re-analysis of the deposited data

How the results depend on the processing

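Of 65 recomputed values over 12 results, 26 stayed within the interval of the main value or within 1.5 times of the main count and 39 moved. With a −log10 q of at least 5 the ratio of list lengths was 0.565, and 48.3% of Veh peaks and 85.4% of GSK peaks were overlapped. The median log2 width ratio was then −0.209, the promoter shares were 66.6% (Veh), 73.9% (GSK), 57.5% (Veh-only) and 61.7% (GSK-only), and the shares of TSSs covered at 1 kb were 17.5% in Veh and 9.92% in GSK. With the Veh list cut to the GSK length by −log10 p, 70.8% of both lists were overlapped, the width ratio was −0.226, the promoter shares were 66.3% (Veh), 47.9% (Veh-only) and 59.0% (GSK-only), the Veh share at 1 kb was 17.6%, and 1461 genes were Veh-only and 1809 GSK-only. Cut by fold, these values were 64.9%, −0.213, 62.5%, 42.9%, 62.5%, 12.1%, 1523 and 2371. The order of the Veh-only and GSK-only gene counts thus depended on the length of the Veh list. The cut took peaks from that list only, so genes with a Veh peak below it could turn GSK-only. The turned order is therefore no measure of genes particular to GSK. An overlap of 50% of the narrower peak gave 53.2% of Veh and 85.8% of GSK peaks overlapped and a GSK-only promoter share of 52.5%. A promoter window of 2.5 kb gave promoter shares of 65.6% (Veh), 73.0% (GSK), 53.4% (Veh-only) and 53.6% (GSK-only). TSSs of protein-coding genes gave 58.3% (Veh), 67.2% (GSK) and 43.5% (Veh-only). By covered bp the list ratio was 0.540. The causes were not tested.

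Joining peaks within 1 kb left both lists as they were. Leaving out peaks of repeated sequence, an alternative chosen after seeing the data, moved no result it was run on. With 1 library per group, leaving out a replicate was not possible. No paired analysis was possible because each group had 1 library. Read depth was not computed and limits every comparison of list lengths, widths and single-list peaks.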
